A study of Mus musculus with 69 samples.

Results

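ATP-sensitive potassium (KATP) channels were followed in mouse hearts after cyanide through their 4 subunit genes, Kcnj11, Kcnj8, Abcc8 and Abcc9, of the 17097 genes named on the arrays. The members were taken as the probe sets that carry these symbols, and 7 of the 45141 probe sets of the deposited value table carried one of these symbols. All 7 passed the filter on low signal and were tested among 26773 probe sets. Kcnj11 was read by 1455417_PM_at and 1450515_PM_at, Kcnj8 by 1418142_PM_at, and Abcc8 by 1455765_PM_a_at and 1457066_PM_at. For each gene, the probe set with the highest mean over all arrays is called its lead probe set: 1455417_PM_at, 1418142_PM_at, 1455765_PM_a_at and, for Abcc9, 1435752_PM_s_at. 1435751_PM_at and 1435752_PM_s_at are annotated to Abcc9 and to the transcript 5330439B14Rik together, and no probe set is annotated to Abcc9 alone, so they are reported as joint probe sets. The other probe set of 5330439B14Rik, annotated to it alone, lay below the filter, with group means from 2.54 to 2.82 on the log2 scale used throughout.

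The hearts came from conscious adult male CD-1 mice, an outbred stock, weighing 20 to 35 g. In the injection arm, mice received KCN at 8.0 mg/kg under the skin or the same volume of saline, and hearts were taken 1, 2, 4, 8 or 24 h later. In the inhalation arm, mice breathed HCN at 327 ppm or air through the nose only, and hearts were collected after 1, 2, 4 and 24 h. There were 69 arrays in 18 groups of 4, except saline at 2 h, saline at 4 h and KCN at 4 h with 3 each. The controls shared the route of their cyanide group. The labels call the arrays biological replicates and say no more on whether each was 1 mouse.

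KATP channels couple the energy state of a cell to its membrane potential: they are held shut by ATP and open when ADP rises. The pore is formed by inward rectifier subunits, encoded by Kcnj11 or Kcnj8, and is surrounded by sulfonylurea receptors, encoded by Abcc8 or Abcc9, which bind nucleotides and many of the drugs that open or close the channel. In ventricular muscle the channel is built mainly from Kcnj11 and Abcc9 products, mouse atria also use Abcc8, and vascular smooth muscle and pericytes use Kcnj8 with Abcc9. Cyanide blocks cytochrome c oxidase and so the mitochondrial supply of ATP, and metabolic poisons of this kind are classical openers of cardiac KATP channels.

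The 4 genes lie as neighbouring pairs. In RefSeq's annotation of GRCm38.p6 there were 0 protein-coding genes between Kcnj11 and Abcc8 on chromosome 7 and 0 between Kcnj8 and Abcc9 on chromosome 6. RefSeq upstream sequences were at hand for 2 of the 4 genes, the chromosome 6 pair, and are shown because Kcnj8 is a pore gene called lower 4 h after inhaled HCN and Abcc9 is its neighbour and partner. Each runs over the 250 bases before the start site on the minus strand, at chr6:142571615-142571864 for Kcnj8 and chr6:142702275-142702524 for Abcc9 (GRCm38.p6), with the letters CACCC, on either strand, in capitals.
Kcnj8: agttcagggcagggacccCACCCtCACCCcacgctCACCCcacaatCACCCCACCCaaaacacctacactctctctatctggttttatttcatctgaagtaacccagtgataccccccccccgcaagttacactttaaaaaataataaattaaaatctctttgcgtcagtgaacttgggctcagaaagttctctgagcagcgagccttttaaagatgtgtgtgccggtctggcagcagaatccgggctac
Abcc9: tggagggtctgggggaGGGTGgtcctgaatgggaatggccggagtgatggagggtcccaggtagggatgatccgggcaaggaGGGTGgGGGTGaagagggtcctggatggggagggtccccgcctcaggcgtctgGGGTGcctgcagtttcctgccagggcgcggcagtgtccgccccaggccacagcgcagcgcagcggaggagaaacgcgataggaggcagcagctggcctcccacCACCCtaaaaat
Each sequence held 5 matches to CACCC, the letters of Kruppel-like factor sites, and 52% of 32851 upstream sequences of this length held at least 1. The share with 5 or more was not computed. The MEF2 (CTAAAAATA), hypoxia-inducible factor (ACGTG), forkhead (GTAAACA) and AP-1 (TGACTCA) letters had 0 matches in both, against 0.469%, 16.6%, 3.17% and 4.46% of all upstream sequences. The Abcc9 sequence ends with all but the last of the MEF2 letters, and the base after it was not read. All 5 motifs were searched on both strands, were picked after both sequences had been seen, and gave no matches that overlapped; a match is a description of letters.

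Heart tissue was checked against marker genes. The 7 cardiomyocyte markers read, such as Tnnt2 and Myl2, and the 4 atrial markers read, such as Nppa and Myl7, had group means above the filter in all 18 groups. Skeletal muscle and islets also use KATP channels. Of their markers, Myh1, Myh4, Pvalb, Gcg and Chga were below the filter in every group, Actn3 was above it in 11 groups (highest group mean 4.12), Ins2 in 7 (3.55), Atp2a1 in 5 (3.32), Myh2 in 2 (3.33) and Pdx1 in 1 (3.31). Airway transcripts were uneven: Scgb1a1, a secretory protein of airway epithelium, ran from 2.54 to 3.08 in saline at 1 h and from 10.99 to 11.99 in KCN at 1 h, and its group means spanned 2.71 to 11.59. Fat transcripts were uneven too, with group means from 7.09 to 10.80 for Adipoq, an adipocyte hormone, and from 4.24 to 9.57 for Ucp1, the uncoupling protein of brown fat. Of the 3 adipocyte markers, 2 rose on the KCN average. The actin ratio, the log2 signal of the actin control probe set at the 3′ end minus that at the 5′ end, rises with RNA degradation; its group means ran from 0.387 in air at 24 h to 1.22 in HCN at 2 h. Levels are compared only within a route, because the value distributions of the arms differ as if each had been normalized by itself, and no probe set's level is set against another's.

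**Figure D1:**
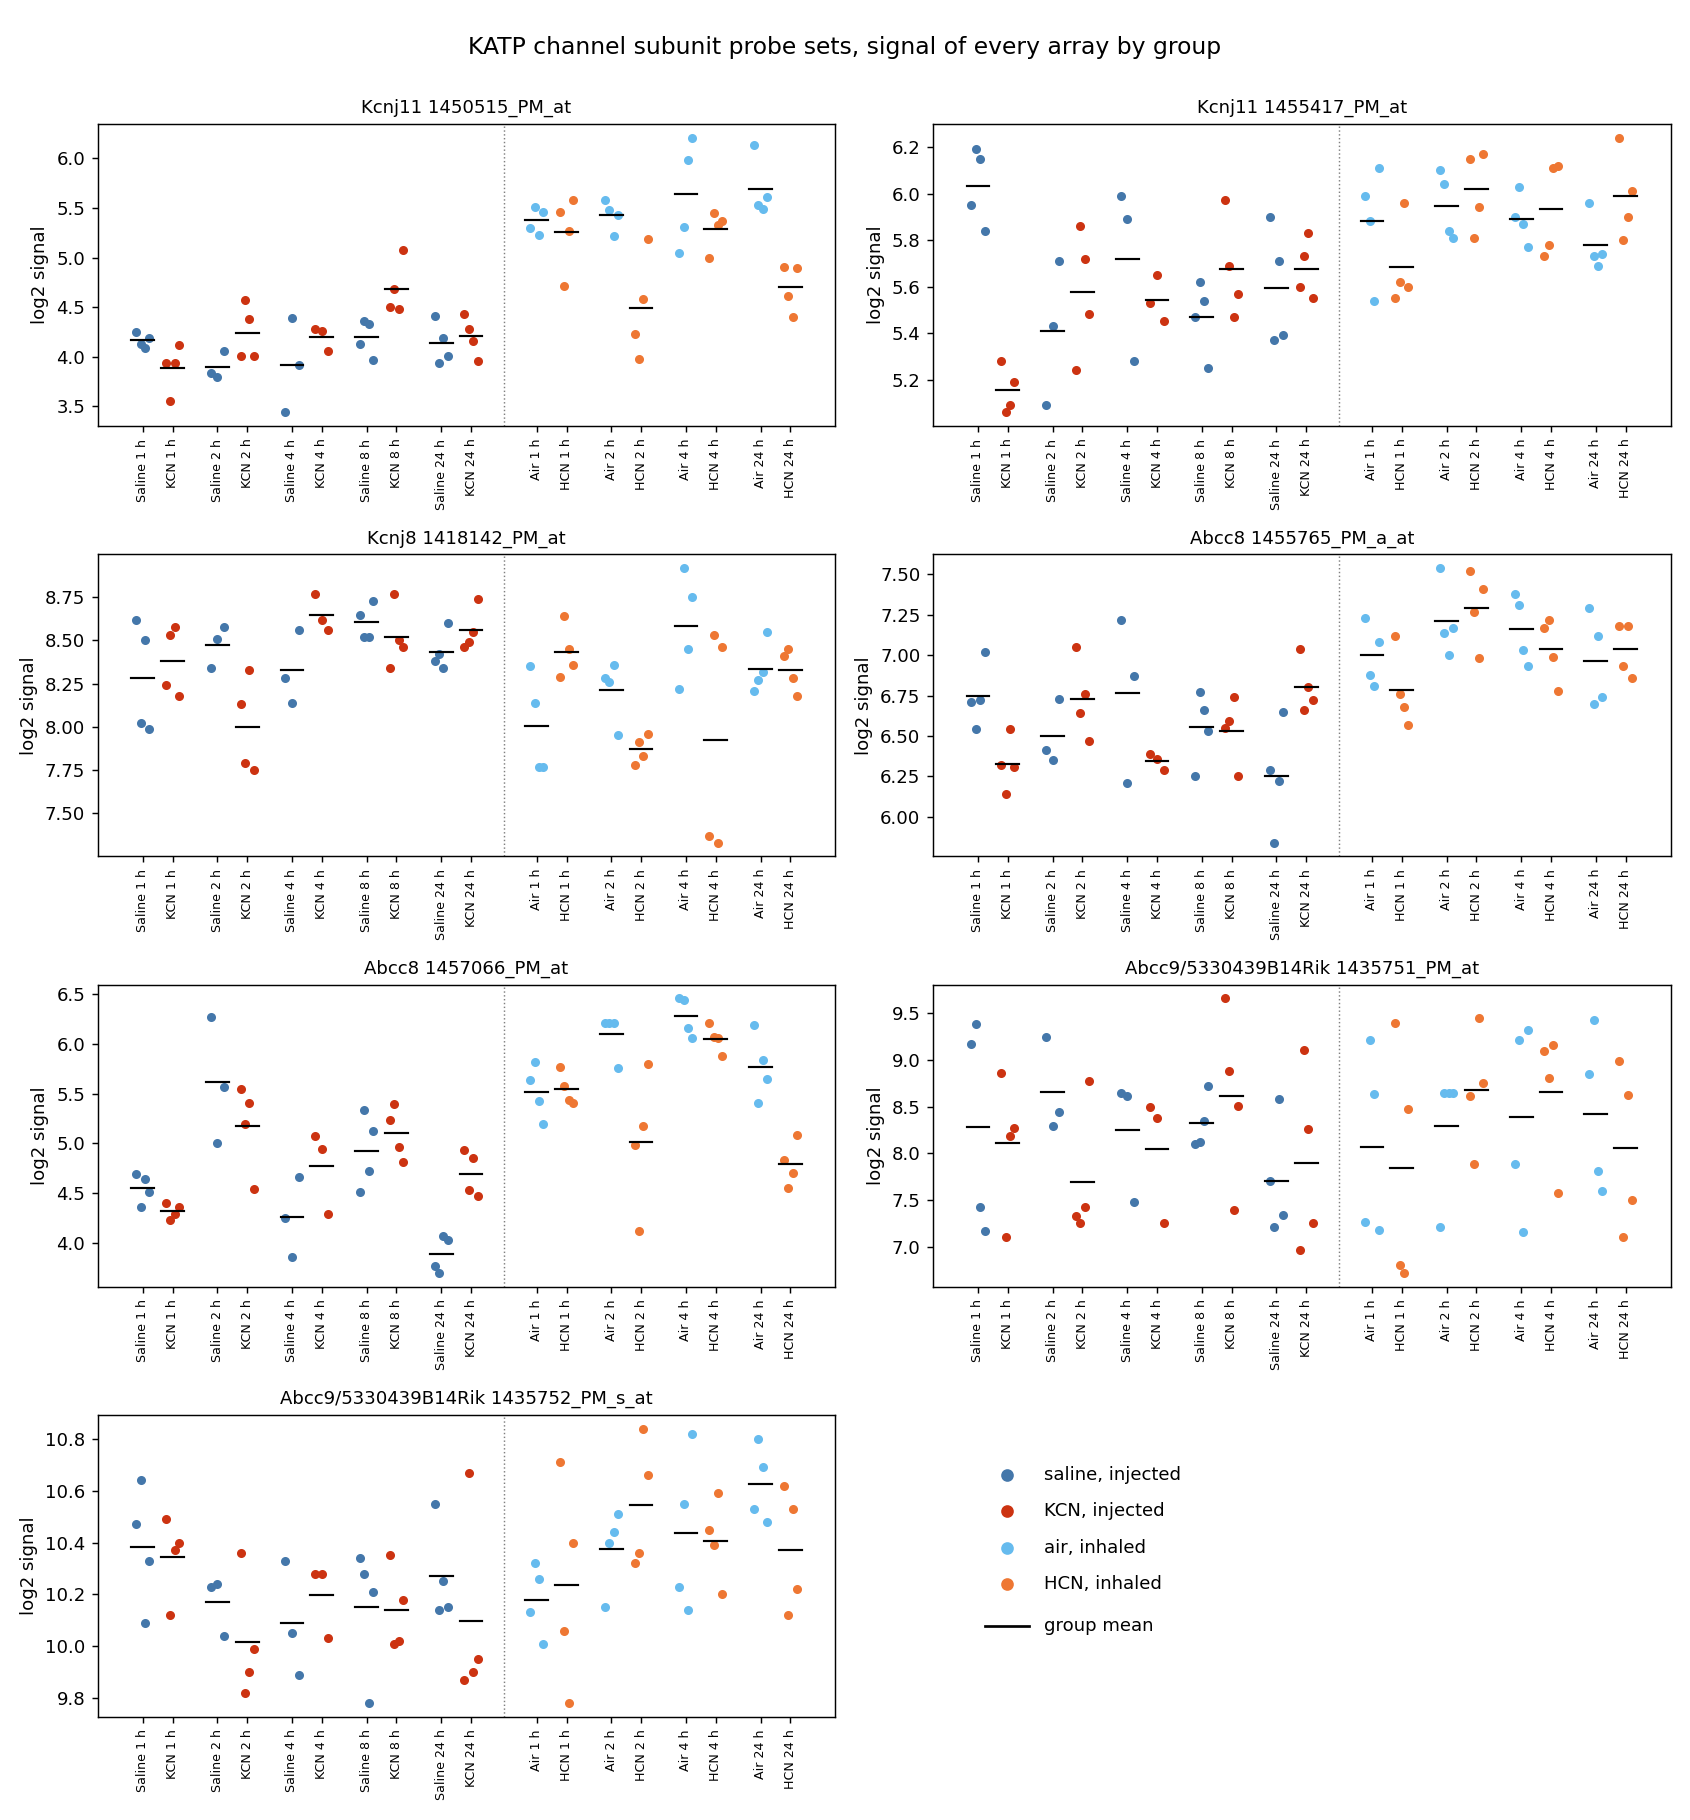
Log2 signal (y axis) of each of the 7 probe sets in every array, by group (x axis). Points are arrays and black lines are group means; the dotted line parts the injection from the inhalation arm. Kcnj11 1455417_PM_at at KCN 1 h and both 24 h pairs of Abcc8 1457066_PM_at show groups that do not overlap, while 1435751_PM_at runs from 6.72 to 9.66 with wide spread inside most groups.

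Kcnj11 fell early after injected KCN, on 1 of its 2 probe sets. On 1455417_PM_at, the lead probe set, the 4 saline arrays at 1 h read 5.95, 6.19, 6.15 and 5.84, and the 4 KCN arrays read 5.28, 5.06, 5.09 and 5.19. All KCN arrays lay below all saline arrays. The log2 change was -0.88 ± 0.14 (SE, n = 4 and 4; 95% confidence interval -1.17 to -0.59), a 1.84-fold lower signal, with an adjusted p of 3.64e-05 in limma. It was the only member probe set called of 7 in this comparison, where 4.09% of all tested probe sets were called. In bulk tissue, fewer cells of a type and less RNA per cell cannot be told apart.

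The other Kcnj11 probe set did not pass the test at 1 h. On 1450515_PM_at the saline arrays read 4.25, 4.13, 4.09 and 4.19 and the KCN arrays 3.94, 3.55, 3.94 and 4.12, a difference of -0.28 ± 0.20 (adjusted p = 0.511). All 4 KCN arrays lay below the saline mean, and the groups overlapped by 1 array. On the lead probe set, 1455417_PM_at, the control group was itself high: saline at 1 h had the highest mean of the 10 injection groups, 6.04 ± 0.16 (SD, n = 4), and KCN at 1 h the lowest, 5.15 ± 0.10. Across the saline groups, 1455417_PM_at changed with time (adjusted p = 0.00417, F test over 18 arrays), from 5.41 at 2 h to 6.04 at 1 h, against 38.3% of all probe sets called over time in saline. KCN and saline at 1 h also differed in the actin ratio (0.480 and 0.841) and in Scgb1a1, as above. With the actin ratio in the fit the change of 1455417_PM_at at 1 h was -0.81 (adjusted p = 0.000471), and with the airway transcripts -0.84 (adjusted p = 0.000898). The 3 adipocyte markers averaged from 4.16 to 5.66 in saline and from 5.74 to 7.45 in KCN at 1 h, with 0 of 3 called, and their part in the result was not tested.

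At later times after injection neither Kcnj11 probe set was called. On 1455417_PM_at the changes were 0.16, -0.18, 0.21 and 0.08 at 2, 4, 8 and 24 h, with SEs of 0.14 to 0.17. At 8 h, 1450515_PM_at read 4.13, 4.36, 4.33 and 3.97 in saline and 4.50, 4.68, 4.48 and 5.08 in KCN. The groups did not overlap, yet the difference of 0.49 ± 0.20 had an adjusted p of 0.313. Of all tested probe sets 6.59% were called at 2 h, 2.26% at 4 h and 0.336% at 8 h, and 0 of the 7 member probe sets were called at these times; 1 member at each of the 3 times had an unadjusted p under 0.05.

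After inhaled HCN, the calls were on the other Kcnj11 probe set. On 1450515_PM_at the air arrays at 2 h read 5.58, 5.48, 5.22 and 5.43, and the HCN arrays 4.23, 3.98, 4.58 and 5.19. The groups did not overlap, although the highest HCN array came close to the lowest air array. The probe set fell by 0.93 ± 0.20 (n = 4 and 4; adjusted p = 0.000479). At 24 h the air arrays read 6.14, 5.53, 5.49 and 5.61 and the HCN arrays 4.91, 4.61, 4.40 and 4.90. Again all HCN arrays were lower, and the change was -0.99 ± 0.20 (adjusted p = 0.000361). At 1 and 4 h the differences of -0.12 and -0.35 did not pass the test (adjusted p = 0.858 and 0.358).

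The lead Kcnj11 probe set did not pass the test at these times. On 1455417_PM_at, air and HCN at 2 h had means of 5.95 ± 0.14 and 6.02 ± 0.17 (SD), a difference of 0.07 with a 95% interval of -0.22 to 0.36. At 24 h the means were 5.78 ± 0.12 and 5.99 ± 0.19, a difference of 0.21 with an interval of -0.08 to 0.50. Both intervals leave out a fall of the size seen on 1450515_PM_at. The probe sets of Kcnj11 thus passed the test in different comparisons of the same arrays.

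Kcnj8 fell once, 4 h after inhaled HCN. Its only probe set, 1418142_PM_at, read 8.22, 8.92, 8.45 and 8.75 in air and 7.37, 8.53, 7.33 and 8.46 in HCN. HCN replicates 1 and 3 were lower than every other inhalation array of this probe set, and replicates 2 and 4 lay within the air range. The change was -0.66 ± 0.17 (n = 4 and 4; adjusted p = 0.00919), a 1.58-fold lower signal, and it was the only member called of 7, where 7.35% of all tested probe sets were called. Without HCN replicate 1, HCN replicate 3 or air replicate 2 the adjusted p rose to 0.104, 0.116 and 0.066, with changes of -0.48, -0.46 and -0.55. In HCN replicates 1 and 3 Scgb1a1 read 12.77 and 12.03, against 2.75 and 3.26 in replicates 2 and 4; the 4 air arrays read from 9.76 to 12.85. With airway transcripts in the fit the change was -0.73 (adjusted p = 0.0037). The 7 pericyte markers on the array averaged from 6.91 to 7.24 in air and from 6.84 to 7.23 in HCN, and the 6 endothelial markers from 8.07 to 8.24 and from 7.84 to 8.22. Of the endothelial markers 2 of 6 fell, Tek (-0.49 ± 0.14, adjusted p = 0.0233) and Emcn (-0.45 ± 0.13, adjusted p = 0.0186), and none rose; of the pericyte markers 0 of 7 were called. Those of smooth muscle, 4 on the array, averaged from 7.03 to 8.07 and from 7.32 to 8.06; their part in the result was not tested.

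Before and after that time Kcnj8 differences were smaller and of both signs. At 1 h after HCN, air read 8.35, 8.14, 7.77 and 7.77 and HCN 8.29, 8.64, 8.45 and 8.36, a difference of 0.43 ± 0.17 (adjusted p = 0.198), where 0 of 7 members were called against 2.68% of all, and 1 had an unadjusted p under 0.05. At 2 h after HCN it was -0.34 ± 0.17 (adjusted p = 0.138), and at 24 h -0.01 ± 0.17. After KCN at 2 h, saline read 8.34, 8.51 and 8.58 and KCN 8.13, 7.79, 8.33 and 7.75. These groups did not overlap, and the difference of -0.47 ± 0.19 had an adjusted p of 0.117; with each route in a fit of its own it passed (adjusted p = 0.0434). At 1, 4, 8 and 24 h after KCN the differences ran from -0.09 to 0.32 and none was called.

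Abcc8, which encodes the sulfonylurea receptor of pancreatic beta cells and of mouse atria, rose 24 h after injected KCN on both of its probe sets. On 1455765_PM_a_at, the lead, saline read 6.29, 5.84, 6.22 and 6.65 and KCN 7.04, 6.66, 6.80 and 6.72. All KCN arrays were above all saline arrays, the closest only just, and the change was 0.55 ± 0.17 (adjusted p = 0.0209), a 1.47-fold higher signal. On 1457066_PM_at, saline read 3.77, 3.70, 4.07 and 4.03 and KCN 4.93, 4.53, 4.85 and 4.47, with no overlap and a change of 0.80 ± 0.23 (adjusted p = 0.0148). These were the 2 member probe sets called of 7 at 24 h, where 11.9% of all tested probe sets were called.

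Both calls rest on few arrays. Without saline replicate 2 the changes were 0.41 (adjusted p = 0.132) and 0.74 (adjusted p = 0.0519), and without KCN replicate 1 they were 0.47 (adjusted p = 0.0935) and 0.72 (adjusted p = 0.0614). Without saline replicate 1, 1457066_PM_at gave 0.76 (adjusted p = 0.0518). Saline at 24 h had the lowest mean of the 10 injection groups on both probe sets, 6.25 ± 0.33 and 3.89 ± 0.19 (SD, n = 4). On 1457066_PM_at the saline means went from 3.89 at 24 h to 5.62 ± 0.63 at 2 h (n = 3), and the change over time among the controls was called (adjusted p = 2.00e-06). The KCN mean at 24 h, 4.70 ± 0.23, lay inside that control range. The actin ratio was 0.879 in saline and 0.473 in KCN; with it in the fit, 1455765_PM_a_at gave 0.65 (adjusted p = 0.0124) and 1457066_PM_at 0.48 (adjusted p = 0.172). The 4 atrial markers averaged from 10.27 to 10.58 in saline and from 10.38 to 10.66 in KCN at 24 h, and the 4 airway markers from 2.74 to 6.80 and from 2.89 to 8.76. The 3 adipocyte markers averaged from 3.48 to 6.46 in saline and from 5.91 to 8.07 in KCN, with 0 of 3 called, and their part in the result was not tested. With airway transcripts in the fit the changes were 0.61 and 0.85 (adjusted p = 0.0117 and 0.0121).

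After inhaled HCN, 1457066_PM_at moved the other way while the lead Abcc8 probe set did not pass the test. At 2 h the air arrays of 1457066_PM_at read 6.21, 6.21, 6.21 and 5.76 and the HCN arrays 4.98, 4.12, 5.18 and 5.80. The groups overlapped by 1 array, and the change was -1.08 ± 0.23 (adjusted p = 0.00034). At 24 h air read 6.19, 5.41, 5.84 and 5.65 and HCN 4.83, 4.55, 4.70 and 5.09, with no overlap and a change of -0.98 ± 0.23 (adjusted p = 0.00168). On 1455765_PM_a_at the differences at these times were 0.08 ± 0.17 and 0.08 ± 0.17, with 95% intervals of -0.25 to 0.42 and -0.25 to 0.41. Among the air groups 1457066_PM_at also changed with time (adjusted p = 0.0499; 16.7% of all probe sets called), from 5.52 at 1 h to 6.28 at 4 h.

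The HCN falls at 2 and 24 h were thus called on the second probe set of each gene, 2 of 7 member probe sets at both times, where 25.3% and 14.3% of all tested probe sets were called. The actin ratio differed between the groups at the same times. At 2 h it was 0.317 to 0.652 in air and 0.645 to 1.95 in HCN, and at 24 h 0.32 to 0.414 in air and 0.641 to 1.25 in HCN; at 4 h, when neither of these probe sets was called, the group means were 0.40 and 0.411. Ratio and exposure differed together at 2 and 24 h and cannot be told apart there. Within HCN at 2 h, replicate 2 had the highest actin ratio (1.95) and the lowest signal on both (3.98 and 4.12), and replicate 4 had the lowest ratio (0.645) and the highest signal (5.19 and 5.80). Within HCN at 24 h, replicate 1 had the highest ratio (1.25) with signals of 4.91 and 4.83, and replicate 4 the lowest (0.641) with 4.90 and 5.09, so on Kcnj11 the ends did not differ. Once the actin ratio entered the fit, the changes at 2 h were -0.50 for Kcnj11 and -0.47 for Abcc8 (adjusted p = 0.184 and 0.248). At 24 h they were -0.65 and -0.51 (adjusted p = 0.111 and 0.307), and 0 of the 7 were called at either time. Of all tested probe sets, 3016 at 2 h and 733 at 24 h were called in that fit, against 6763 and 3834 without the ratio. The weight of the ratio in that fit comes from the scatter between arrays of one group, read below.

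**Figure D2:**
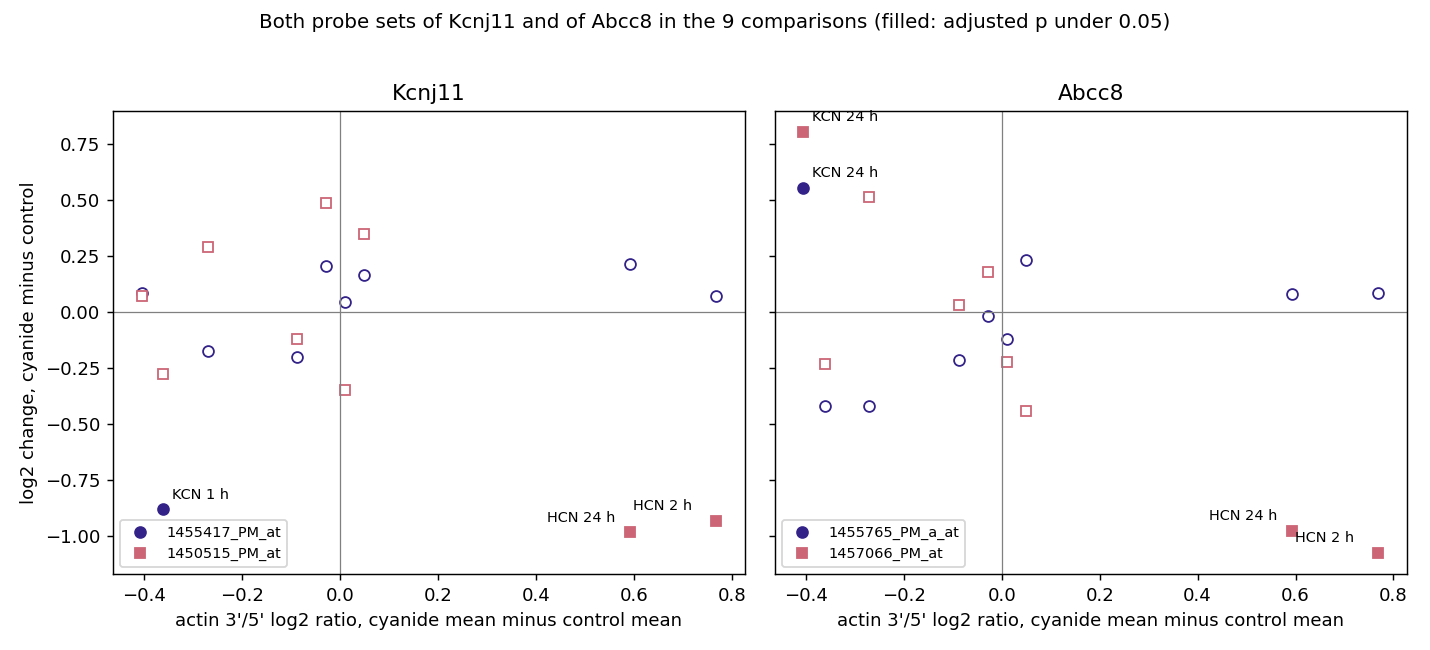
Log2 change (y axis, cyanide minus control) of both probe sets of Kcnj11 and of Abcc8 in the 9 comparisons, against the difference in the mean actin log2 ratio between the same groups (x axis); circles are the lead and squares the second probe set, filled where adjusted p was under 0.05. In the HCN comparisons at 2 and 24 h, where the ratio differed most, the squares lie at -0.93 to -1.08 and the circles at 0.07 to 0.21.

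The relation was also read between arrays of one group. Taken as deviations from group means over 69 arrays, the ratio and 1457066_PM_at of Abcc8 gave a Pearson r of -0.46 and a Spearman rho of -0.19 (permutation p = 0.0136 and 0.194; adjusted over 7 probe sets 0.0953 and 0.315), and r was -0.21 without the 2 arrays of most extreme ratio, -0.16 in the injection arm and -0.69 in the inhalation arm. For Kcnj11 1450515_PM_at they were -0.38 and -0.24 (permutation p = 0.047 and 0.0924; adjusted 0.164 and 0.216), and r was -0.17 without the 2 extreme arrays, -0.16 in the injection arm and -0.48 in the inhalation arm. Both Pearson values rest on 2 arrays, replicates 2 and 4 of HCN at 2 h, and none of the 7 relations passed adjustment. The same scatter sets the weight of the ratio in every fit that holds it. How far the adjusted changes of these probe sets depend on the 2 arrays was not tested. Probe sets of one gene did share part of their scatter: r was 0.29 for Kcnj11 (rho 0.36; permutation p = 0.0423 and 0.00828, adjusted over 3 pairs 0.0423 and 0.00828; r 0.28 without the 2 extreme arrays, 0.33 and 0.27 within the arms) and 0.43 for Abcc8 (rho 0.49; permutation p = 0.00165 and 0.00027, adjusted 0.00247 and 0.000405; r 0.42 without the 2, 0.50 and 0.34 within the arms). These comparisons were chosen after the values had been seen.

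Abcc9, the sulfonylurea receptor of ventricular and vascular KATP channels, gave no call. Neither joint probe set passed the test in any of the 9 comparisons, the 2 route averages or the 4 differences between routes. On 1435752_PM_s_at, the lead, the group means ran from 10.02 in KCN at 2 h to 10.39 in saline at 1 h, and from 10.18 in air at 1 h to 10.63 in air at 24 h. Its changes lay between -0.26 ± 0.16 (HCN at 24 h, adjusted p = 0.314) and 0.17 ± 0.16 (HCN at 2 h, adjusted p = 0.478). The 95% intervals of these changes ran from -0.58 to 0.07 and from -0.15 to 0.49. At 24 h, air read 10.53, 10.80, 10.69 and 10.48 and HCN 10.62, 10.12, 10.53 and 10.22, and the groups overlapped.

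1435751_PM_at varied widely between arrays of one group. Over the 69 arrays it ran from 6.72 to 9.66, with a median of 8.38 and 27 arrays below 8. Its SD within groups was 0.85, larger than that of 99.4% of tested probe sets, against a median of 0.21 over all of them. Saline at 1 h shows the spread: replicates 1 and 2 read 9.17 and 9.38, and replicates 3 and 4 read 7.42 and 7.17. HCN at 1 h read 9.40, 6.80, 6.72 and 8.47, and air at 4 h 7.88, 9.21, 7.16 and 9.32. With this spread the SE of a change was 0.57 to 0.66, so that the largest difference, -0.97 ± 0.62 at 2 h after KCN, had an adjusted p of 0.401.

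The 2 joint probe sets moved together between arrays of one group. Their deviations from group means had an r of 0.73 and a rho of 0.75 over 69 arrays (permutation p = 1e-05 for both, the smallest that 100000 shuffles can give; adjusted over 3 pairs 3e-05), with r = 0.70 without the 2 most extreme arrays, 0.57 within the injection arm and 0.88 within the inhalation arm. The SD within groups was 0.24 on 1435752_PM_s_at. Among all named genes, those whose deviations followed 1435751_PM_at most, in either sign, were Golt1b (r = -0.65), Mtfr1 (-0.58), Aebp2 (0.54), Pde7a (0.49) and Cmah (-0.48), over 69 arrays and within groups. Golt1b, a Golgi transport protein, and Aebp2, a partner of Polycomb complex proteins, lie on chromosome 6 like Abcc9, with 4 and 17 protein-coding genes between; Mtfr1 and Pde7a are both on chromosome 3, and Cmah is on chromosome 13. The signs were the same in both arms for all 5. The 5 were picked on both arms together, so this agreement was favoured by the choice and is no check. The list was also chosen after the spread of this probe set had been seen.

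**Figure D3:**
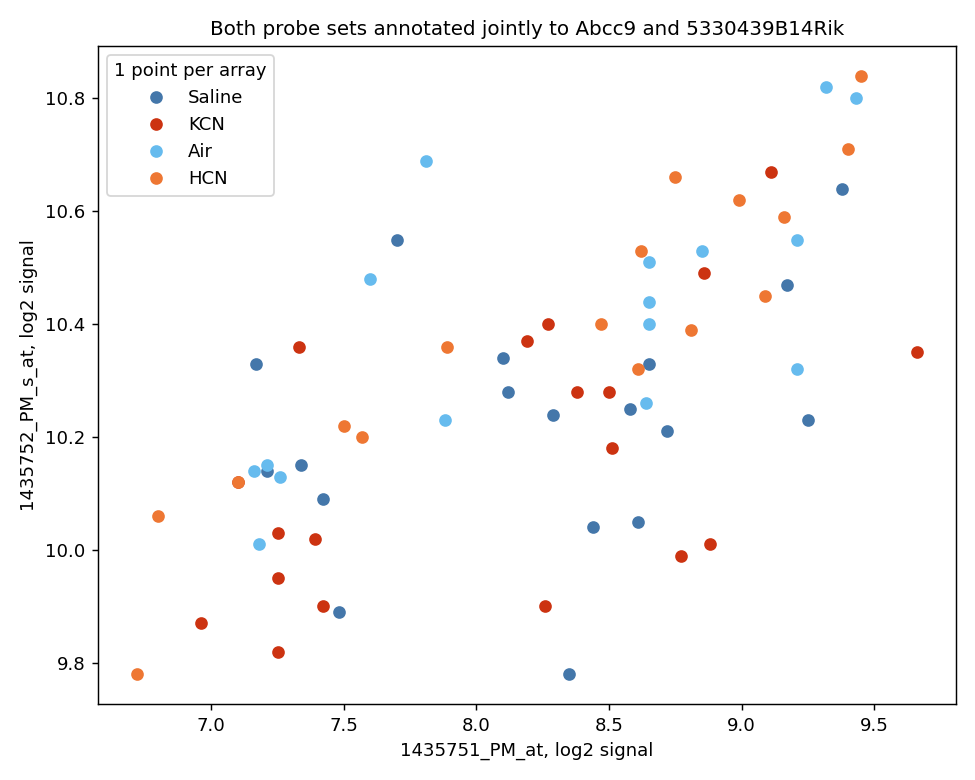
Log2 signal of 1435751_PM_at (x axis) against 1435752_PM_s_at (y axis), both annotated jointly to Abcc9 and 5330439B14Rik, with 1 point per array coloured by exposure. The points run from 6.72 to 9.66 on the x axis and from 9.78 to 10.84 on the y axis, and the exposures overlap on both.

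Levels were also put in order within each route. When the group means of a route were put in order, the arrays of neighbouring groups overlapped throughout. Pairs without overlap were 0 of 9 among injection groups and 0 of 7 among inhalation groups, for each of the 7 probe sets. Groups next to each other in such an order have close means, so overlap is likely from the ordering itself. The share over all probe sets was not computed. For Kcnj8 the order in the injection arm ran from KCN at 2 h (8.00 ± 0.28) to KCN at 4 h (8.65 ± 0.11), and in the inhalation arm from HCN at 2 h (7.87 ± 0.08) to air at 4 h (8.58 ± 0.31). For Abcc8 1455765_PM_a_at it ran from saline at 24 h to KCN at 24 h (6.80 ± 0.17), and from HCN at 1 h (6.78 ± 0.24) to HCN at 2 h (7.30 ± 0.24). For Kcnj11 1455417_PM_at the inhalation order ran from HCN at 1 h (5.68 ± 0.19) to HCN at 2 h.

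**Figure D4:**
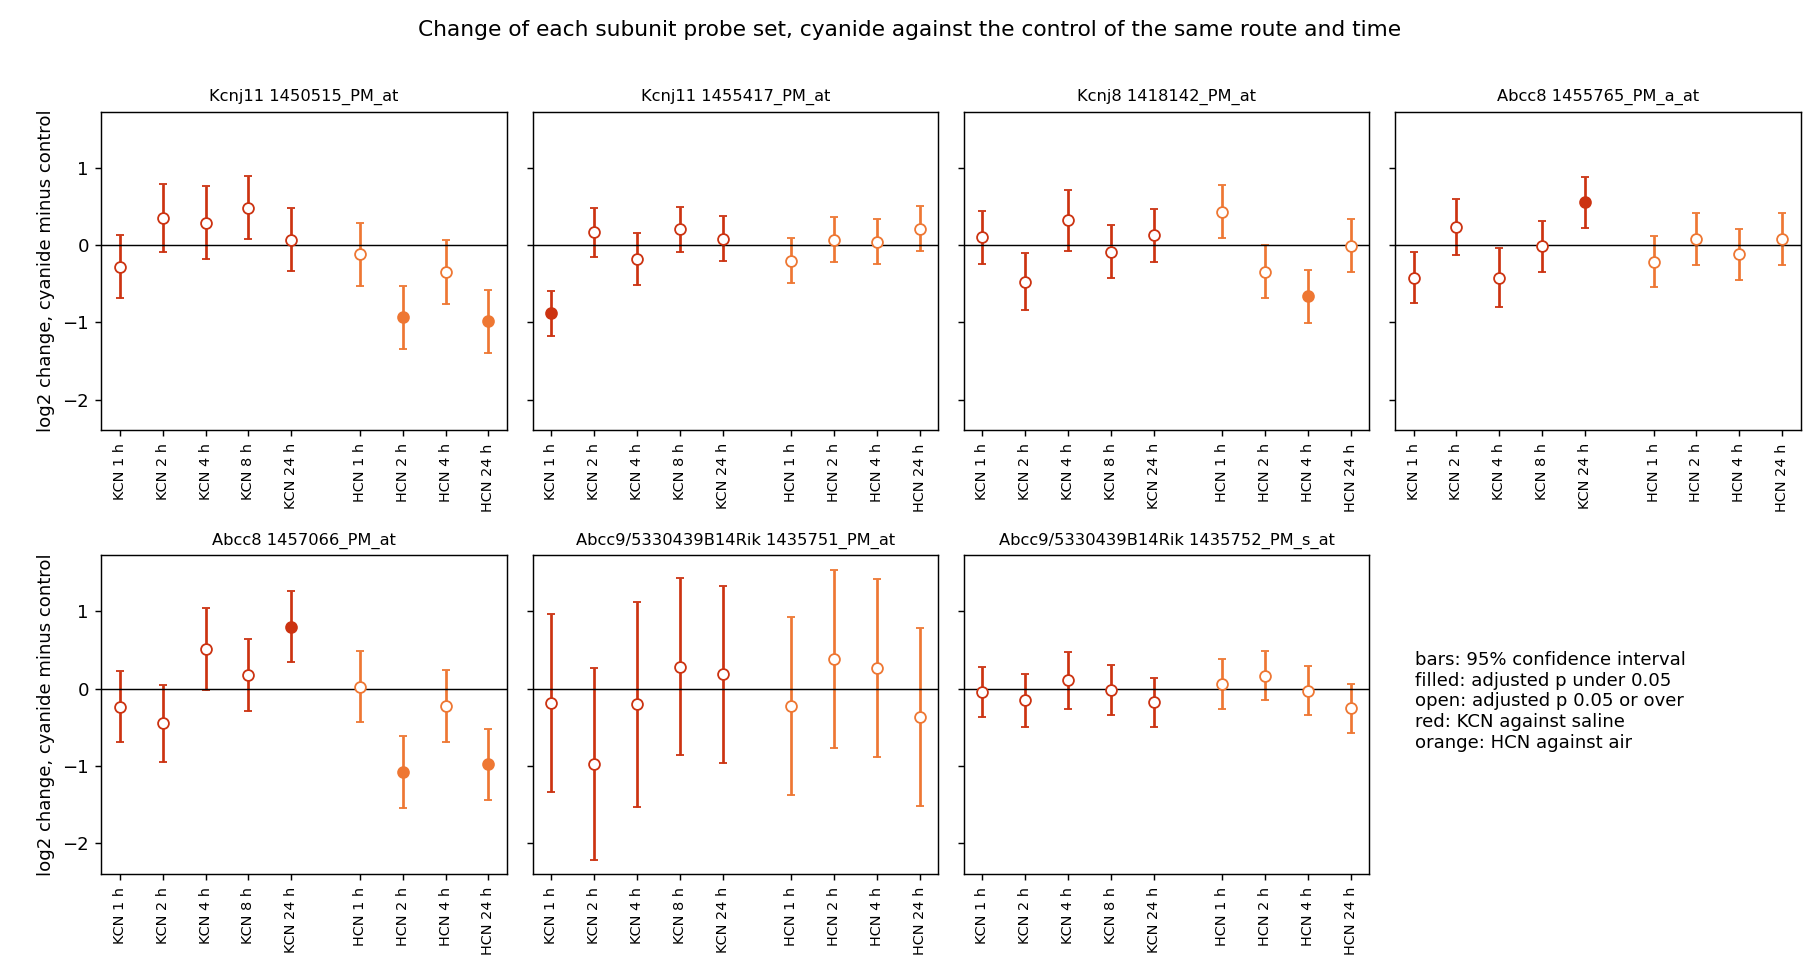
Log2 change (y axis, cyanide minus control, with 95% confidence intervals) of each probe set in the 9 comparisons (x axis); filled points have an adjusted p under 0.05. There are 8 filled points, 3 for KCN and 5 for HCN, and none on the joint Abcc9 probe sets.

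Averaged over its times, KCN gave no member call: 0 of 7 probe sets were called, against 9.51% of all, and 0 had an unadjusted p under 0.05. Averaged over its 4 times, HCN lowered Kcnj11 1450515_PM_at by 0.60 ± 0.10 (adjusted p = 1.63e-05) and Abcc8 1457066_PM_at by 0.56 ± 0.11 (adjusted p = 0.000219), against 21.5% of all called; the lead probe sets of these genes gave 0.03 ± 0.07 and -0.04 ± 0.08. With the actin ratio in the fit the averages were -0.41 (adjusted p = 0.0154) and -0.31 (adjusted p = 0.107). Of all tested probe sets, 2220 were called on the HCN average in that fit, against 5747 without the ratio.

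The effect of inhaled HCN minus that of injected KCN was tested at the 4 shared times; agent, dose and route differ together and cannot be told apart. At 1 h no member was called (0.198% of all), and Kcnj11 1455417_PM_at gave 0.68 ± 0.20 (adjusted p = 0.186); 1 member had an unadjusted p under 0.05. At 2 h Kcnj11 1450515_PM_at differed by -1.28 ± 0.30 (adjusted p = 0.00743; 5.73% of all called), from 0.35 after KCN and -0.93 after HCN. At 4 h Kcnj8 differed by -0.98 ± 0.26 (adjusted p = 0.0362; 1.87% of all), from 0.32 after KCN and -0.66 after HCN. This call was lost when any 1 of 8 arrays was left out (changes of -1.02 to -0.78, adjusted p = 0.053 to 0.11), replicates 1 and 2 of saline, 1 and 3 of KCN, 2 and 4 of air and 1 and 3 of HCN. It was also lost with each array centred on its median (adjusted p = 0.0592) and with only the groups compared in the fit (adjusted p = 0.23). At 24 h Kcnj11 1450515_PM_at differed by -1.06 ± 0.29 (adjusted p = 0.00641) and Abcc8 1457066_PM_at by -1.78 ± 0.33 (adjusted p = 5.12e-05), where 18.8% of all were called. With the actin ratio in the fit, the differences at 2 and 24 h on these 2 probe sets were -0.87, -0.49 and -0.996, with adjusted p of 0.163, 0.485 and 0.116. Of all tested probe sets, 260 at 2 h and 808 at 24 h were called in that fit, against 1534 and 5037 without the ratio.

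No pair of subunits passed a test for varying together between arrays. Over the 6 pairs of lead probe sets, the deviations from group means of 69 arrays gave r from -0.15 (Kcnj8 with the joint Abcc9 probe set) to 0.08 (Kcnj11 with Abcc8), with rho from -0.12 to 0.11 and adjusted permutation p of 0.844 for r in every pair and at least 0.831 for rho. For Kcnj11 with the joint Abcc9 probe set, the ventricular pairing, r was -0.03, with 0.16 in the injection and -0.28 in the inhalation arm. By likeness over 69 arrays centred by route, the genes nearest Kcnj8 were Elk3 (r = 0.74), Chst7 (0.72), Marcks (0.71), Afdn (0.70) and Arhgap18 (0.70). Nearest Kcnj11 were Bcat2 (0.59), Tmem38a (0.53), Dag1 (0.51), Khsrp (0.50) and Dnm2 (0.50). Nearest Abcc8 were Cnot10 (0.57), Prpf19 (0.56), Cd99l2 (0.54), Ttc12 (0.53) and Med25 (0.52). By this route-centred likeness the joint Abcc9 probe set had no gene above Fcho2 (0.42). Values centred by route include differences between groups. As deviations from group means, r ran from 0.32 (Dag1) to 0.68 (Elk3) for the genes named for Kcnj11, Kcnj8 and Abcc8. With the joint Abcc9 lead, r within groups was 0.13 for Fcho2. It was 0.54 for Aebp2, which had been picked on the other joint probe set.

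Other genes of the channel's setting were read from 6 lists, 67 of whose 87 genes were tested. After KCN, 2 of the 67 (2.99%) were called at each of 1, 2 and 4 h, 0 at 8 h and 14 (20.9%) at 24 h, 7 in each direction. After HCN the number called was 2 (2.99%) at 1 h and 15 (22.4%) at 2 h, of which 11 fell. It was 8 (11.9%) at 4 h, of which 6 rose, and 10 (14.9%) at 24 h, of which 7 fell. These shares count genes, each read on 1 probe set, that of highest mean among those with only its symbol. Those of all probe sets given above count probe sets, so the comparison is rough. Other probe sets of the listed genes were not read. The list medians stayed within 0.24 of 0 in all 9 comparisons on the 6 lists.

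Among the inward rectifiers, the channel family of Kcnj11 and Kcnj8, 9 of 13 listed genes were tested and 2 were called in the 9 comparisons. Kcnj12, a strong rectifier that helps set the resting potential, fell at 2 h after HCN (-0.67 ± 0.25, adjusted p = 0.0426), and Kcnj5, a subunit of the acetylcholine-gated channel of atrial muscle, fell at 4 h after HCN (-0.67 ± 0.19, adjusted p = 0.019). None of the 9 was called at any single time after KCN. Of the other cardiac potassium channels, 17 of 23 were tested. Kcne4, a regulatory subunit of voltage-gated channels, rose 1 h after HCN from a mean of 5.09 to 6.81 (1.72 ± 0.23, adjusted p = 2.24e-07) and at 2 h by 0.94 ± 0.23 (adjusted p = 0.00144). Kcna5, which carries an ultrarapid outward current, rose at 4 h after HCN from 6.58 to 8.55 (1.97 ± 0.53, adjusted p = 0.0116). Kcnk6, a tandem-pore channel, rose at 1 h after KCN (0.59 ± 0.13, adjusted p = 0.0025) and at 2 h after HCN (0.73 ± 0.13, adjusted p = 1.70e-05). Kcnd3, which carries transient outward current, fell at 4 h after HCN (-0.65 ± 0.17, adjusted p = 0.00947).

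Of the ABCC relatives of the sulfonylurea receptors, which are transporters, 4 of 9 were tested. Abcc4 rose at 2 and 4 h after HCN (0.52 ± 0.16 and 0.60 ± 0.16, adjusted p = 0.0118 and 0.00995), Abcc1 at 4 h (0.41 ± 0.11, adjusted p = 0.0146) and Abcc3 at 24 h (0.59 ± 0.16, adjusted p = 0.00732), and none was called after KCN. The energy-sensing list held AMP kinase, creatine kinase and adenylate kinase genes, 13 of 15 tested. Stk11, the kinase that activates AMP kinase, rose at 24 h after KCN (0.63 ± 0.12, adjusted p = 0.000196) and fell at 2 and 24 h after HCN (-0.52 ± 0.12 and -0.40 ± 0.12, adjusted p = 0.000739 and 0.0156). Ckm, the muscle creatine kinase, fell at 24 h after HCN (-0.34 ± 0.08, adjusted p = 0.00107), and Prkaa2, a catalytic subunit of AMP kinase, fell at 24 h after KCN (-0.61 ± 0.15, adjusted p = 0.00301).

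All 15 genes of the list of membrane partners, kinases and trafficking were tested. At 24 h after KCN 3 rose and 4 fell: Prkcd, a protein kinase C, rose by 0.77 ± 0.15 (adjusted p = 0.000257), and Vps35, of the retromer, fell by 0.28 ± 0.06 (adjusted p = 0.00115). At 24 h after HCN Prkcd fell (-0.66 ± 0.15, adjusted p = 0.000894) and Ank2, an ankyrin that anchors the channel, rose (0.36 ± 0.11, adjusted p = 0.0215). Of 12 listed transcription factors 9 were tested, and not every called one is named. Esrra fell at 2 h after HCN (-0.72 ± 0.14, adjusted p = 6.05e-05). Ppara fell at 1 and 24 h after HCN (-0.73 ± 0.20 and -0.91 ± 0.20, adjusted p = 0.0305 and 0.000878). Foxo3 rose at 24 h after HCN (0.46 ± 0.15, adjusted p = 0.0336). Hif1a rose at 2 and 4 h after HCN (0.62 ± 0.11 and 0.41 ± 0.11, adjusted p = 2.88e-05 and 0.0121) and fell at 24 h after KCN (-0.42 ± 0.11, adjusted p = 0.00784). Nkx2-5, a cardiac homeobox factor, rose at 24 h after KCN (0.95 ± 0.18, adjusted p = 0.000267) and fell at 2 and 24 h after HCN (-0.71 ± 0.18 and -0.57 ± 0.18, adjusted p = 0.00251 and 0.0255). At 24 h Stk11, Prkcd and Nkx2-5, like Abcc8 1457066_PM_at, were called upward after KCN and downward after HCN, with inhaled minus injected differences of -1.03, -1.43 and -1.51 (adjusted p = 8.43e-06, 1.22e-06 and 1.61e-05). The actin ratio differed in opposite directions in the same 2 comparisons, and it differed at 2 h after HCN as well. Its part in the changes of the listed genes, these 3 among them, was not tested at any time.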

How the data were processed

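For each array 100 ng of heart RNA was amplified and biotin-labelled with the Affymetrix 3′ IVT PLUS chemistry, per the labels' protocols, and hybridised to HT MG-430 PM arrays. The deposited values are log2 signals per probe set, normalized by the authors; MAS5 is named in the submitters' processing notes without version or role, and the log2 base was read from the values (1.83 to 13.94). The number of arrays limits the precision. Members and gene lists were chosen with earlier results of these data known. Symbols came from the platform annotation: 28898 probe sets had 1 symbol, 551 several and 15692 none. Probe sets with at least 1 group mean above 3.23, the median of all group means, were kept (26773; 104 AFFX controls left out). In R 4.3.3, limma 3.58.1 fitted 18 group means by lmFit and eBayes, trended on intensity, with 51 residual and 5.53 prior degrees of freedom. Tests were two-sided, and p-values were adjusted (Benjamini-Hochberg) over all 26773 probe sets of a contrast, with calls at 0.05. The fit was tested on simulated data. Correlations used group-centred values and 100000 shuffles within groups. Named genes were all member probe sets, genes from the up to 3 called of lowest p per list and comparison, and genes from the 5 most like each member. Not every gene open to naming by this rule is named. Median 95th percentiles were 9.24 in the injection and 9.52 in the inhalation arm. The p-values measure the spread between these arrays. Probe sequences and protein sequences were not used here.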

Additional observations from a re-analysis of the deposited data

Results flagged for a closer look

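Of 105 sets of 4 arrays (a group and a probe set), 5 held 1 array far from the other 3; about 1 in 20 such sets is marked by chance. On Kcnj11 1455417_PM_at, HCN 1 h replicate 3 read 5.96, above the others at 5.55 to 5.62. On Abcc8 1457066_PM_at, air 2 h replicate 4 read 5.76, below the others at 6.21. On the joint Abcc9 and 5330439B14Rik probe set 1435751_PM_at, KCN 2 h replicate 4 read 8.77, above the others at 7.25 to 7.42, and air 2 h replicate 1 read 7.21, below the others at 8.65. On 1435752_PM_s_at, KCN 24 h replicate 2 read 10.67, above the others at 9.87 to 9.95.

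Inhaled and injected cyanide differed in effect, by limma's test of the difference, on 3 probe sets. Kcnj11 1450515_PM_at differed by -1.28 at 2 h (adjusted p = 0.00743) and by -1.06 at 24 h (adjusted p = 0.00641). Kcnj8 differed by -0.98 at 4 h (adjusted p = 0.0362), and Abcc8 1457066_PM_at by -1.78 at 24 h (adjusted p = 5.12e-05). The 3 differences of Kcnj11 and Abcc8 were not called once the actin ratio was added to the fit (adjusted p = 0.163, 0.485 and 0.116). The difference of Kcnj8 was lost without any 1 of 8 arrays (adjusted p = 0.053 to 0.11), with each array centred on its median (0.0592) and with only the groups compared (0.23).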

How the results depend on the processing

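The 14 member calls were recomputed under 12 settings and without each array in turn. Of 345 alternative values, 315 stayed past the threshold in the same direction and none was called in the opposite one. Kcnj11 1455417_PM_at at KCN 1 h (-0.908 to -0.812) and Abcc8 1455765_PM_a_at at KCN 24 h (0.496 to 0.652) kept their calls under all 12 settings. With the actin ratio as covariate, Abcc8 1457066_PM_at gave 0.483 at KCN 24 h (1 member called), -0.473 at HCN 2 h, -0.513 at HCN 24 h, -0.311 for the HCN average (1 called) and -0.996 for the 24 h difference between routes; Kcnj11 1450515_PM_at gave -0.495 at HCN 2 h and -0.647 at HCN 24 h (0 called at either), and -0.87 and -0.487 for the differences at 2 and 24 h (0 called at either). With only the groups compared in the fit, which leaves fewer arrays for the spread, Abcc8 1457066_PM_at gave -1.077 at HCN 2 h (adjusted p = 0.0574; 1 called), Kcnj8 -0.659 at HCN 4 h (adjusted p = 0.226; 0 called), Kcnj11 1450515_PM_at -1.28 for the 2 h difference (adjusted p = 0.109; 0 called) and Kcnj8 -0.979 for the 4 h difference (adjusted p = 0.23; 0 called). With each array centred on its median, the 4 h difference for Kcnj8 was -0.83 (adjusted p = 0.0592; 0 called); the cause was not tested. With each route in its own fit, 1 member was called at KCN 2 h, Kcnj8 (-0.474, adjusted p = 0.0434), the only one of 2224 alternative values of uncalled results to pass; 120 of them changed sign with neither value called.

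Leaving out 1 array, the number called ranged from 0 to 2 at KCN 24 h, and from 0 to 1 at HCN 4 h and for the 4 h difference, and was constant elsewhere. Abcc8 1455765_PM_a_at at KCN 24 h ranged from 0.414 to 0.685 and 1457066_PM_at from 0.723 to 0.879. Kcnj8 ranged from -0.861 to -0.462 at HCN 4 h, and from -1.181 to -0.781 for the 4 h difference, which lost its call when any 1 of 8 arrays at 4 h was left out (replicates 1 and 2 of saline, 1 and 3 of KCN, 2 and 4 of air, 1 and 3 of HCN). The replicate block changed no call (Kcnj11 1455417_PM_at at KCN 1 h -0.882, adjusted p = 5.31e-05). Deviations of same-numbered arrays had r from -0.142 to 0.318 over 34 pairs, 9 of them over 0.1, and 13 correlated best with their own number. These values do not settle whether same-numbered arrays share more than a number. Some settings give no value for the averages or the differences. Groups of 3 or 4 arrays limit what could be detected.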
